A study of Rattus norvegicus with 2 samples.

Results

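The genes described here are 39 genes of DNA replication, deoxynucleotide synthesis and the entry into S phase, taken as a fixed list of symbols, out of 15159 rat genes with a matched probe on the array. Each symbol was matched to the array through the RefSeq accession of its probes. By the scanner software's flag, both arrays measured 29 of the 39 genes well above background, and 4 were so on the aneurysm array only (Cdc6, Gins2, Pola2 and Ube2t), 4 on neither (Orc1, Cdt1, Ccne2 and Dnmt1), and no probe was matched to Mcm5 or Uhrf1.

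RNA of rat intracranial arteries was hybridised to 1-colour arrays, 1 array for untreated arterial wall (the control) and 1 array for an intracranial aneurysm sampled 3 weeks after its induction. The sources used here do not give the rats' strain, sex or age, how the aneurysm was induced, or whether animals were pooled. The series compares an induced aneurysm with normal arterial wall. With 1 array per group there is no replicate, no test across samples is possible, no p-value is given and every difference describes these 2 libraries, since the number of arrays limits the precision.

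Before a cell copies its DNA, the origin recognition complex (Orc genes), Cdc6 and Cdt1 load a ring of Mcm2 to Mcm7 onto each origin. Cdc45 and the GINS complex turn that ring into the running helicase, primase and the replicative polymerases then synthesise DNA on the Pcna clamp, and ribonucleotide reductase and thymidylate synthase supply the nucleotides. Transcription of many of these genes is switched on by E2F factors as a cell leaves quiescence, and most smooth muscle and endothelial cells of a normal adult artery are quiescent.

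Many of these genes share a promoter feature that their choice did not use. The E2F-type motif was searched on both strands as TTTCCCGC, TTTCGCGC, TTTGCCGC and TTTGGCGC, in the window from 250 bases before to 50 after each annotated start in RefSeq promoters of assembly GRCr8. A promoter was found for 33 of the 39 genes, and 16 of the 33 (48.5%) held at least 1 match, against 651 of 27457 genes (2.37%) with a promoter in the same table. The CCAAT box, searched as CCAAT on both strands, was in 21 of 33 (63.6%) against 39.6% of all genes. A match describes letters in a window and does not show that a factor binds there, and the table of all genes also holds predicted gene models named only by a locus number.

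Of the 16 genes, the 6 shown are those measured here with a match wholly inside the 150 bases before the start, and they cover the helicase (Mcm2, Mcm6, Mcm7, Gins1) and the making and repair of nucleotides in DNA (Tyms, Ung). Each sequence is those 150 bases, read 5′ to 3′ on the gene's strand, with E2F-type matches in capitals. They lie at chr4:122918095-122918244 (minus strand) for Mcm2, chr13:42404353-42404502 (minus strand) for Mcm6 and chr12:22163179-22163328 (minus strand) for Mcm7. Those of Gins1, Tyms and Ung lie at chr3:160184770-160184919 (plus strand), chr9:120776084-120776233 (minus strand) and chr12:48154046-48154195 (minus strand). In Mcm2, Mcm6 and Gins1 a match on the gene's strand overlaps a match on the other strand, which gives 12 capitals in a row. A second match of Mcm7 lies further upstream and is not shown.
Mcm2: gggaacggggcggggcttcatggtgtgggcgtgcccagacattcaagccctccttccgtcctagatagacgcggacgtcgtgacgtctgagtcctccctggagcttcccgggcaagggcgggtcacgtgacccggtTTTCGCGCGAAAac
Mcm6: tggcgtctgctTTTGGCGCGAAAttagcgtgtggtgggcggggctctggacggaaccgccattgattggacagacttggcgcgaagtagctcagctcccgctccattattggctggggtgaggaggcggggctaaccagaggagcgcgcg
Mcm7: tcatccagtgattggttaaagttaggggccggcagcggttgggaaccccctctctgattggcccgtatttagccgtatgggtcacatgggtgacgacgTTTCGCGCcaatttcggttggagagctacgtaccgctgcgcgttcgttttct
Gins1: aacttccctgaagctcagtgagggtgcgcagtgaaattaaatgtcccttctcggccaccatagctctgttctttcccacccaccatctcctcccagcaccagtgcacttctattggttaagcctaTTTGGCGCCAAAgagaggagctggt
Tyms: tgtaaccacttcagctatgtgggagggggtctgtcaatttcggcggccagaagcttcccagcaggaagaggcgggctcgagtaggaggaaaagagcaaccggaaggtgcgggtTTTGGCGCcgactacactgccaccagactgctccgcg
Ung: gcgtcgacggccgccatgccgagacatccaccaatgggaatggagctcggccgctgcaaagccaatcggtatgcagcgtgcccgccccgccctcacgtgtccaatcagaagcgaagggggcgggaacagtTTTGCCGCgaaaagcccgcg

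**Figure D1:**
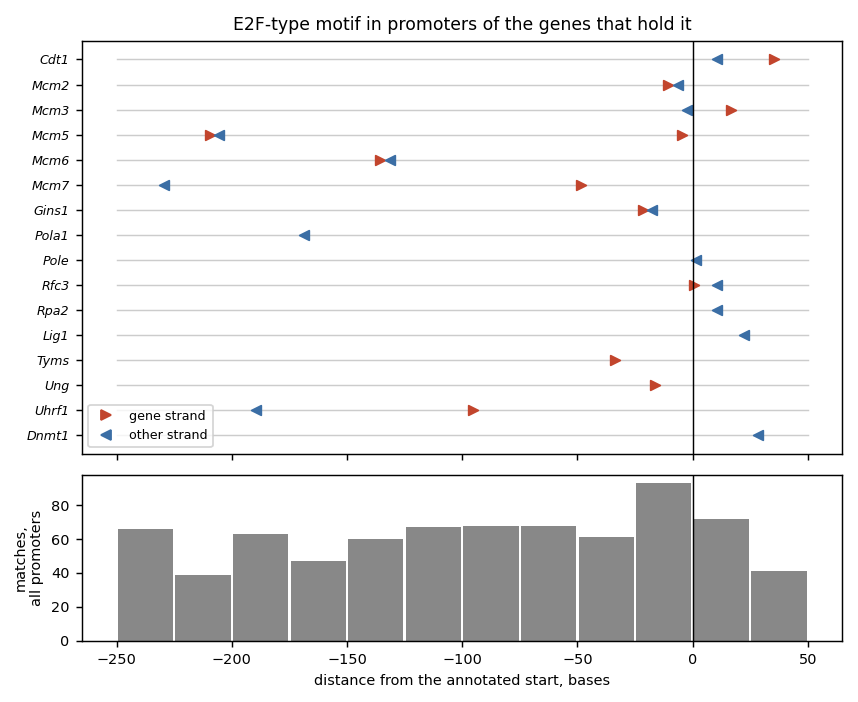
Position of each E2F-type match in the promoters of the 16 genes that hold one (upper panel, triangle at the middle of the match, pointing right for the gene's strand and left for the other) and the number of matches per 25 bases over all promoters (lower panel), with distance from the annotated start in bases. In Mcm2, Mcm3, Mcm5, Gins1, Rfc3, Ung and Pole at least 1 match begins within 25 bases before the start, where the count over all promoters is also highest, at 93.

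Differences between the arrays were small for most of these genes. A level is the log2 signal relative to the 75th percentile of its own array, and a difference is the aneurysm level minus the control level. After ± stands the spot error of that difference, pooled from the scatter of repeat spots on each array, so it contains no variation between animals. Levels are not compared between genes, because probes differ in brightness. Of the 29 genes measured on both arrays, 19 were higher in the aneurysm library and 10 lower, with a range of -0.34 to 0.85 and a median of 0.10. Among all 11201 genes measured on both arrays, 5599 were higher and the median was 0.00. A difference of at least 1.5-fold in the higher direction was reached by 3 of the 29 genes (Rrm2, Mcm6 and Ung), against 3.00% of all genes, and in the lower direction by 0 of 29, against 6.22%.

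Counted with the 4 genes seen on the aneurysm array alone, 7 of 33 were at least 1.5-fold higher (4.25% of 11902 genes with a difference or bound) and 0 were at least 1.5-fold lower (8.43%). At 2-fold, 4 of 33 were higher, against 0.882% of all genes. All 4 were the genes measured on the aneurysm array only, which could pass the filter only by being higher there, so these counts describe the filter as well as the genes. Every direction is relative to the other genes on the array: scaled to the array's spike-in controls instead, the median of all genes was 0.31, 32 of the 33 genes were above 0 rather than 23, and 12 reached 1.5-fold. With normexp, a model-based background correction, 15 of 30 genes with a value were above 0 and 0 reached 1.5-fold, Rrm2 coming nearest at 0.54. All genes were lower under that setting too, with a median of -0.08, 0.805% at least 1.5-fold higher and 4.78% lower. The median of the replication and nucleotide genes minus that of all genes was 0.10 with normexp and 0.11 without it.

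**Figure D2:**
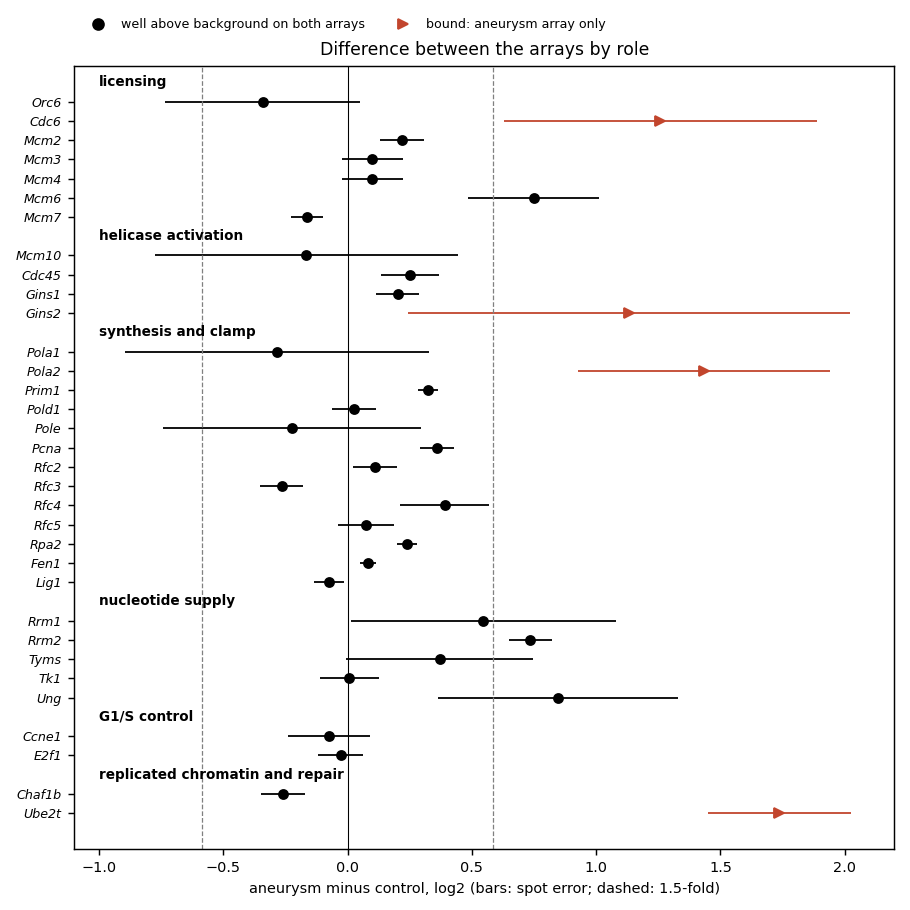
Difference of each gene with a value, in log2 aneurysm minus control, ordered by role, with bars of 1 spot error; triangles are bounds of genes well above background on the aneurysm array only, and dashed lines mark 1.5-fold. Most points lie between -0.34 and 0.39, while Rrm2, Mcm6, Ung and the 4 bounds lie beyond the upper line; with spike-in scaling every point moves up by the same amount, close to 0.31.

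Loading of the helicase was represented by 7 genes with a value, and 2 of them were at least 1.5-fold higher, against 4.25% of all genes. Of the 6 measured on both arrays 1 was, against 3.00%, since Cdc6 passed the filter through the aneurysm array alone. Mcm6, a subunit of the helicase ring, had spots at -4.22 and -3.87 on the control array and at -3.38 and -3.21 on the aneurysm array. Its spots did not overlap between the arrays, and it was 1.68-fold higher in the aneurysm library (0.75 ± 0.26, but 0.16 with normexp). Cdc6, which helps to load the ring, had control spots at -6.54 and -6.24, neither well above background, and aneurysm spots at -5.23 and -5.05. It was 2.39-fold higher as measured (1.26 ± 0.63), and its difference was -0.08 with normexp.

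The other ring subunits differed little. Mcm2 was at -1.37 in the control against -1.15 in the aneurysm library, a difference of 0.22 ± 0.09 whose spots did not overlap. Mcm3 and Mcm4, with 1 spot per array each, both differed by 0.10 ± 0.12, which is within the spot error. Mcm7 was lower by 0.16 on the log2 scale, from 0.77 to 0.61, beyond 2 spot errors of 0.06, and it was at 0.14 with spike-in scaling, a scaling that raises all genes. The measured subunits of the ring thus spread from -0.16 to 0.75.

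A second, dimmer probe was present for 6 genes (Mcm2, Mcm3, Mcm4, Mcm10, Rrm2 and E2f1), and in all 6 its difference was more positive than that of the bright probe. The second probes of Mcm2, Mcm10 and E2f1 were well above background on the aneurysm array only, and those of Mcm4 and Rrm2 on neither. How often dimmer probes differ this way over all genes is not given. The dim probe of Mcm2 was well above background on the aneurysm array only and differed by 1.23 ± 0.76 on 1 spot per array. The second probe of Mcm3 was well above background on both arrays and differed by 0.40 ± 0.22, and that of Mcm4, at 0.60 ± 0.67, was above background on neither. Averaged over probes well above background on at least 1 array, Mcm2 was at 0.73 and Mcm3 at 0.25. Mcm2 thus passes or misses 1.5-fold with the choice of probe.

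Among the genes of this list, the origin recognition complex was measured on both arrays through Orc6 alone, whose difference was within its error. Orc6 was at -4.16 in the control against -4.51 in the aneurysm library (-0.34 ± 0.39), and its spots did not overlap. Orc1 (-6.62 and -6.79) and Cdt1, the loading factor that acts with Cdc6 (-7.62 and -6.80), were not well above background on either array, so no fold is given for them.

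**Figure D3:**
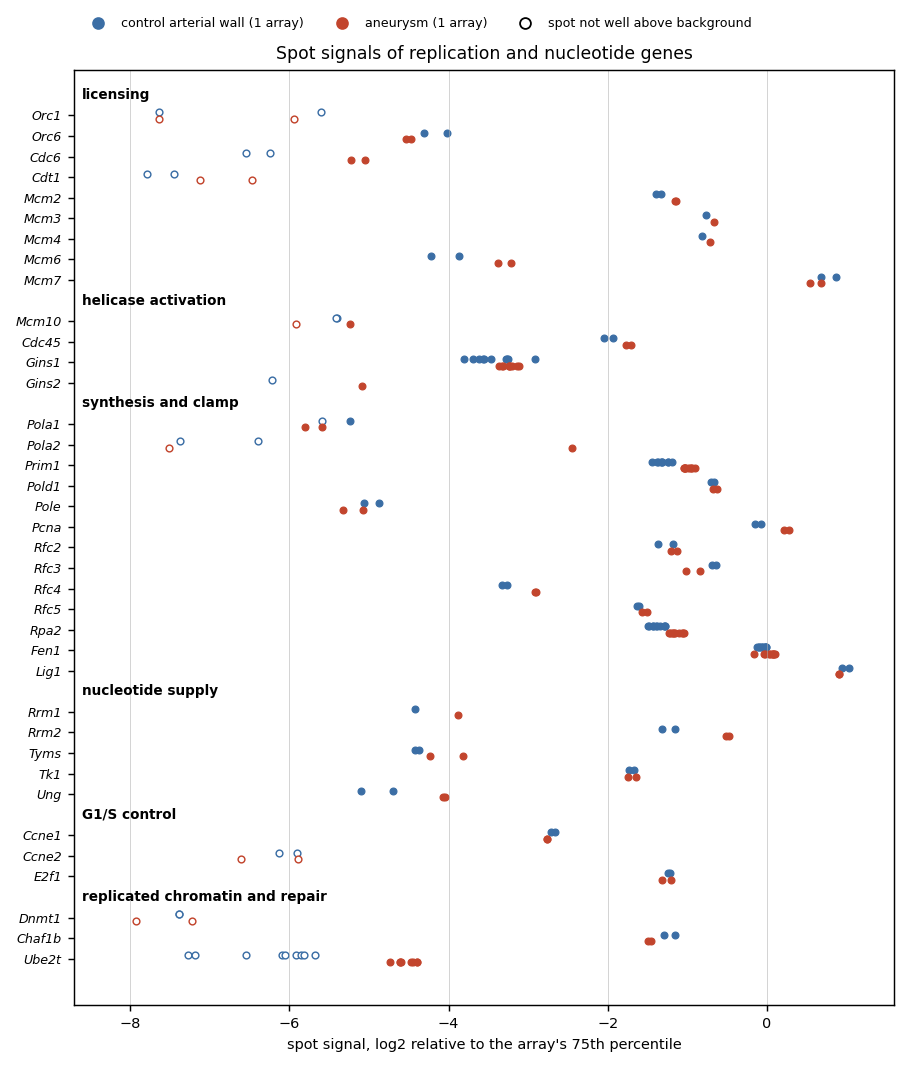
Signal of every spot used for each gene, in log2 relative to the array's 75th percentile, with control spots in blue above aneurysm spots in red, and open circles for spots not well above background. Spots of Rrm2, Pcna, Prim1, Mcm6 and Ube2t, among others, lie apart between the arrays with the aneurysm higher. Those of Orc6, Mcm7, Pole, Rfc3, Lig1, Ccne1 and Chaf1b do not overlap, with the aneurysm lower on this scaling. With spike-in scaling Rfc3 and Chaf1b are higher by 0.04 and 0.05, and of these genes only Orc6 stays lower (-0.035). Spots of Fen1, Pold1 and Tk1 overlap. How often spots lie apart over all genes is not given.

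Among the factors that start the helicase, Cdc45 and Gins1 were slightly higher. Cdc45, which rides with the helicase, had control spots at -2.05 and -1.93 and aneurysm spots at -1.77 and -1.71, a difference of 0.25 ± 0.12. Gins1, a GINS subunit measured by 10 control and 9 aneurysm spots, spread from -3.81 to -2.92 in the control and from -3.37 to -3.12 in the aneurysm library. Its spots overlapped, and the difference was 0.20 ± 0.09 (-0.05 with normexp). Gins2, another GINS subunit, had 1 spot per array, at -6.22 in the control, where it was not well above background, and at -5.09 in the aneurysm library. Gins2 was 2.19-fold higher as measured (1.13 ± 0.89), and its difference was -0.10 with normexp. Mcm10, which joins the helicase to polymerase alpha, was at -5.41 and -5.58, with 1 of 2 spots well above background on each array, and differed by -0.17 ± 0.61. Its second probe differed by 0.67 ± 0.67, so its direction was not settled.

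The sliding clamp and primase were higher by a small amount that the repeat spots resolved. Pcna, the clamp that holds the polymerases on DNA, had spots at -0.15 and -0.07 in the control and at 0.22 and 0.27 in the aneurysm library, and was 1.28-fold higher (0.36 ± 0.07, and 0.34 with normexp). Prim1, the catalytic subunit of primase, spread from -1.44 to -1.19 over 9 control spots and from -1.04 to -0.90 over 10 aneurysm spots. The ranges did not overlap, and Prim1 was 1.25-fold higher (0.32 ± 0.04, and 0.21 with normexp). Rpa2, a subunit of the protein that coats single-stranded DNA, spread from -1.49 to -1.28 and from -1.23 to -1.04 over 10 spots per array, a difference of 0.24 ± 0.04.

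Subunits of the clamp loader, replication factor C, differed unequally. Rfc4 was higher by 0.39 ± 0.18 (0.07 with normexp), from -3.30 to -2.91. Rfc3 was lower by 0.27 on the log2 scale (spot error 0.09), with control spots at -0.69 and -0.64 and aneurysm spots at -1.02 and -0.84, and was at 0.04 with spike-in scaling. Rfc2 (0.11 ± 0.09) and Rfc5 (0.07 ± 0.11) differed by less than 2 spot errors. As in the helicase ring, subunits of 1 complex lay on both sides of 0 on this scaling and all above 0 with spike-in scaling.

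The replicative polymerases and the enzymes that finish lagging-strand DNA all lay between -0.28 and 0.08, apart from Pola2. Pold1, the catalytic subunit of polymerase delta, was at -0.68 and -0.66 (0.02 ± 0.09). Pole, that of polymerase epsilon, and Pola1, that of polymerase alpha, differed by -0.23 ± 0.52 and -0.28 ± 0.61, and were too dim for a smaller difference to be resolved. Fen1, the flap nuclease, differed by 0.08 ± 0.03 over 10 spots per array, and its spots overlapped. Lig1, the ligase that joins the fragments, differed by -0.07 ± 0.06.

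Pola2, the accessory subunit of polymerase alpha, had a bound of at least 2.70-fold that rested on 1 spot, and its measured difference was 0.23 with normexp. Its control spots were at -7.37 and -6.40 and its aneurysm spots at -7.51 and -2.45. The second aneurysm spot alone was well above background, while the first lay below both control spots. The repeat spots therefore disagreed by more than the difference between the arrays.

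Genes grouped here as nucleotide supply, the repair gene Ung included, had the highest median of the role groups over genes measured on both arrays, 0.55. In this group 5 of 5 were above 0, with a range of 0.01 to 0.85. With normexp Rrm1, Tyms and Tk1 were below 0, the middle value was that of Tyms at -0.06, and the group did not rank highest. Rrm2, the regulated small subunit of ribonucleotide reductase, which makes deoxynucleotides, had spots at -1.32 and -1.15 in the control and at -0.52 and -0.48 in the aneurysm library. It was 1.67-fold higher (0.74 ± 0.09), its spots did not overlap, and its value ran from 0.54 with normexp to 1.04 with spike-in scaling. A second probe of Rrm2 was well above background on neither array. Rrm1, the large subunit, had 1 spot per array and was at -4.43 and -3.88, a difference of 0.55 ± 0.53 that was -0.07 with normexp.

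The thymidine enzymes differed less. Tyms, thymidylate synthase, had spots at -4.42 and -4.37 in the control and at -4.23 and -3.82 in the aneurysm library (0.37 ± 0.38, and -0.06 with normexp). Tk1, the S phase thymidine kinase of the salvage route, was at -1.70 and -1.69 (0.01 ± 0.12), and its spots overlapped. Ung, the glycosylase that removes uracil from DNA, had control spots at -5.10 and -4.70 and aneurysm spots at -4.07 and -4.04, and was 1.80-fold higher (0.85 ± 0.48, but 0.05 with normexp). Within this group Rrm2 was the gene whose difference stood furthest beyond its spot error, and Tk1 was level.

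Regulators of S phase entry differed by less than their spot errors. Ccne1, the cyclin that drives the step into S phase with Cdk2, was at -2.69 and -2.76 (-0.08 ± 0.16). E2f1, an activating E2F factor, was at -1.23 and -1.26 (-0.03 ± 0.09), while its second probe, well above background on the aneurysm array only, differed by 0.72 ± 0.80. Ccne2, the partner cyclin (-6.02 and -6.25), did not clear background on either array.

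Of the genes that act on freshly copied chromatin and on damaged DNA, only Chaf1b was measured on both arrays. Ube2t passed the filter through the aneurysm array alone, where it could pass only by being higher. Ube2t, the ubiquitin-conjugating enzyme of the Fanconi anaemia pathway, spread from -7.27 to -5.68 over 9 control spots, none well above background, and from -4.73 to -4.39 over 8 aneurysm spots, all well above it. Its spots did not overlap, and the bound was 1.74 ± 0.29, although the measured difference was 0.12 with normexp. Chaf1b, a subunit of chromatin assembly factor 1, had control spots at -1.29 and -1.16 and aneurysm spots at -1.50 and -1.46, lower by 0.26 on the log2 scale (spot error 0.09), and was at 0.05 with spike-in scaling. Dnmt1, the maintenance DNA methyltransferase, had a probe well above background on neither array (-7.39 and -7.57).

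Set against the spot error, 10 of the 29 genes were higher by over 2 spot errors and 3 were lower by that much. Over all genes measured on both arrays these shares were 21.9% and 21.5%. The 10 genes were Mcm2, Mcm6, Cdc45, Gins1, Prim1, Pcna, Rfc4, Rpa2, Fen1 and Rrm2, and the 3 were Mcm7, Rfc3 and Chaf1b. A difference past the spot error says that repeat spots of these 2 arrays resolve it, not that it would recur in other animals.

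Several dim genes depended on the background treatment. Their signals were near the offset in size (33.4 to 86.6 over the spots of Mcm6). What part the offset had in these shifts was not tested. With normexp and an offset of 50, Ung, Mcm6, Rrm1, Tyms and Rfc4 were between -0.07 and 0.16. The dim gene Orc6 went from -0.34 to -0.29. Pola1 and Pole, also dim, went further below 0, from -0.28 and -0.23 to -0.36 and -0.31. Among brighter genes, Pcna, Rfc3 and Chaf1b were at 0.34, -0.26 and -0.25, and Rrm2 and Prim1 at 0.54 and 0.21. Measured differences of Cdc6 and Gins2 turned to -0.08 and -0.10. For Cdc6, Gins2 and Ube2t the control level lay above -6.41, the lowest control probe well above background, so that the bound equals the measured difference and is an estimate rather than a strict limit.

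**Figure D4:**
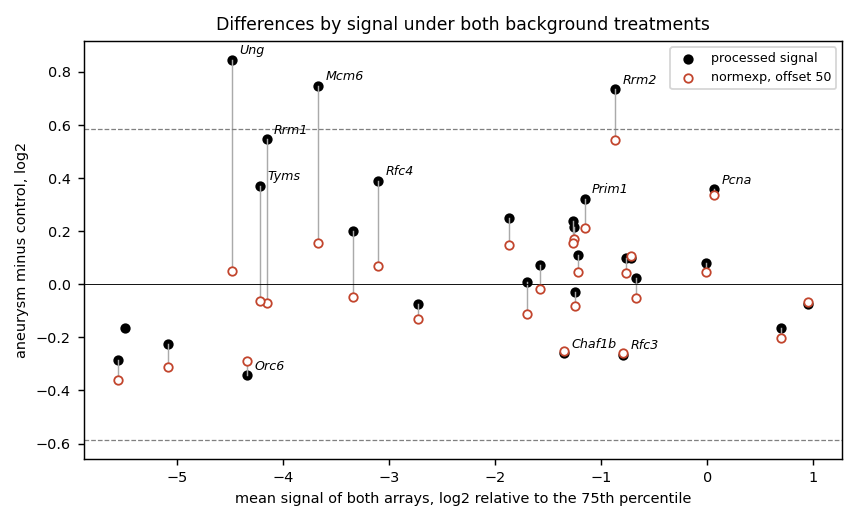
Difference (log2 aneurysm minus control) of the 29 genes well above background on both arrays against their mean signal (log2 relative to the 75th percentile), from the processed signal (filled) and after normexp with an offset of 50 (open), joined by a line where both exist; dashed lines mark 1.5-fold. Dim genes such as Ung (0.85 to 0.05) and Mcm6 (0.75 to 0.16) move far, while Pcna (0.36 to 0.34) and Rfc3 (-0.27 to -0.26, or 0.04 with spike-in scaling) stay in place.

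The 12 genes with an E2F-type match that were measured on both arrays had a median of 0.15 and 7 of 12 above 0, and the 14 without a match had a median of 0.08 and 10 of 14 above 0. Matches stood in the promoters shown above of Ung and Mcm6, which were at least 1.5-fold higher, and equally in that of Mcm7, which was lower on this scaling. The promoters of Gins2, Pola2 and Ube2t, whose bounds of 1.13, 1.43 and 1.74 also passed 1.5-fold, held no match. No promoter was found for Rrm2, Cdc6, Mcm4 or E2f1, so these are in neither group. The split is a description of the 26 genes, with no test.

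Other genes of these pathways were taken from lists chosen with earlier results of these data known. Of 25 other replication genes measured on both arrays, 17 were above 0, none reached 1.5-fold in either direction and the median was 0.09, while Wdhd1, a fork protein seen on the aneurysm array only, had a bound of 1.33. The largest were Pole4, a small subunit of polymerase epsilon (0.45 ± 0.09), Mcmbp, which binds the helicase ring (0.45 ± 0.12), Donson, a replication fork protein (0.43 ± 0.49), and Tipin, which stabilises the fork (0.41 ± 0.12). Of 26 other nucleotide genes, 16 were above 0 and the median was 0.05. Umps (0.41 ± 0.16) and Gart (0.40 ± 0.07), enzymes of pyrimidine and purine synthesis, and Dctd, deoxycytidylate deaminase (0.38 ± 0.09), were the highest.

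Rrm2b, the p53-induced alternative small subunit of ribonucleotide reductase, was the lowest of that list. It was at -4.98 in the control against -6.23 in the aneurysm library, a difference of -1.25 ± 0.66 at low signal. Among 9 genes of S phase chromatin and repair measured on both arrays, 6 were above 0 and the median was 0.14. The histone mRNA binding protein gene Slbp was at 0.37 ± 0.05 and the exonuclease gene Exo1 at -0.33 ± 0.52.

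G1/S regulators as a list had a median of 0.02, with 11 of 21 genes above 0. Ccna2, the cyclin of S phase and G2, was at 0.73 ± 0.18 and the inhibitor gene Cdkn2c at 0.64 ± 0.26. The inhibitor gene Cdkn2a was at -0.81 ± 0.23 and E2f3, another activating E2F factor, at -0.56 ± 0.21. Genes of mitosis stood higher than the replication and nucleotide genes on this scaling. Of 16 measured on both arrays, 15 were above 0, and the median was 0.43 against 0.10 for the replication and nucleotide genes. At least 1.5-fold higher were 6 of these 16 and 3 of the 29 replication and nucleotide genes, against 3.00% of all genes. Cdk1 was at 0.83 ± 0.05 and Prc1, which bundles the spindle midzone, at 0.90 ± 0.11. In the control Cdk1 was at -1.93, but Ccnb1 (-4.64) and Kif11 (-5.27) were dim, and values with normexp are not given for this list. This difference between the lists was not tested, since 1 array per group allows no test.

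**Figure D5:**
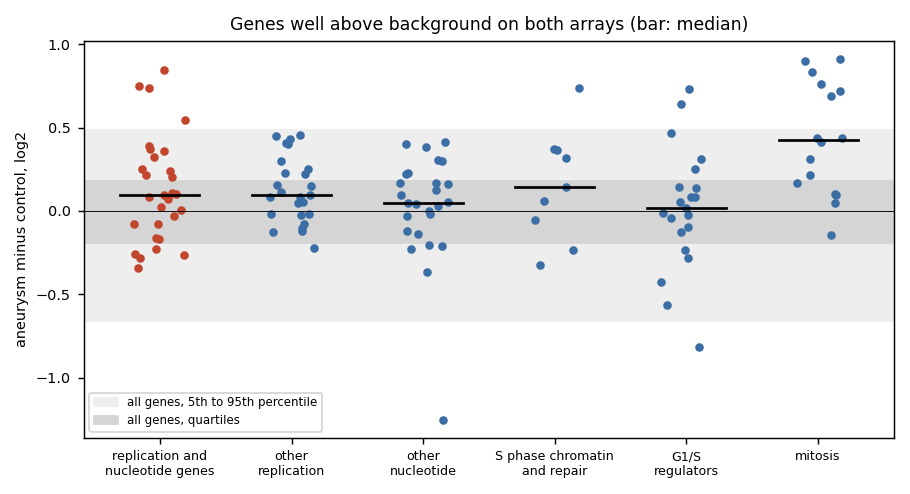
Difference (log2 aneurysm minus control) of each gene well above background on both arrays, for the replication and nucleotide genes (red) and 5 related lists (blue), with a bar at each list's median, over bands for the quartiles and the 5th to 95th percentile of all genes. The mitosis genes centre on 0.43 and the replication and nucleotide genes on 0.10, next to the other replication genes at 0.09; spike-in scaling moves all points up by about the same amount, close to 0.31.

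Markers of the cell types present differed between the libraries too, on lists that were also chosen with earlier results known, and in bulk tissue fewer cells of a type and less RNA per cell cannot be told apart. The label of arterial wall was checked on 8 smooth muscle and 7 endothelial markers with a probe, and all were detected on each array, with medians of 0.17 and 0.16. Fibroblast markers had a median of 0.55 (6 of 7 above 0) and macrophage markers 0.24 (9 of 10 above 0), and the summed linear signal of the macrophage list, in units of the array's 75th percentile, was 46.2 in the control against 53.1. Of 9 lymphocyte markers with a probe, 5 were well above background on both arrays, all above 0, with Cd3g at 0.69 ± 0.06 and Cd4 at 0.64 ± 0.26, while Cd2 and Cd79b were above background on neither, and the list's summed signal was 0.758 against 0.976. The control library carried more signal of other tissues. The summed signal of the hepatocyte list was 22.6 in the control against 0.600, with 9 of 9 genes with a value at least 2-fold lower in the aneurysm library. It was 168.6 against 86.3 for the oligodendrocyte list (7 of 8 genes at least 1.5-fold lower), 5.51 against 3.85 for neurons (4 of 7), 10.3 against 2.42 for pituitary (4 of 5) and 149.4 against 80.0 for erythroid cells (3 of 5). The part of these cells in the values of the replication and nucleotide genes was not tested.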

How the data were processed

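Total RNA of 1 control and 1 aneurysm sample, grouped by title, was labelled in 1 colour and hybridised to an Agilent rat array, per the labels' protocols. Per the file headers, the authors deposited scanner output of the Feature Extraction software, version 10.10.1.1, whose intensity values are processed spot signals on a linear scale, not normalized between arrays. Other deposited columns are flags, for instance for spots well above background. The signal was put on the log2 scale and the 75th percentile of non-control spots (620.7 in the control, 801.2 in the aneurysm library) was subtracted. Of 58717 non-control spots, 484 and 573 outliers were left out, and 74.7% and 76.4% were well above background. No spot was saturated, and both arrays share a slide and a scan, per the file headers. Spots of a probe were averaged, and a probe counted as well above background unless most of its spots lacked the flag. Accessions without version named 18006 of 30367 probes through a RefSeq table of GRCr8, a later build than the array's, so no array coordinates are used. The brightest probe above background on either array stood for its gene (11983 genes). A gene above background on 1 array received a bound, the brighter level minus the higher of the dim level and the lowest level of any probe well above background on the dim array. Spot SDs were pooled over probes in 20 bins of signal. Normexp ran in limma 3.58.1 on median spot and background signals, since mean spot signals are not used here. The code was tested on simulated data. Genes named are all 39, with up to 4 of the largest differences of each list. Wdhd1 and the undetected lymphocyte markers were named after their values were seen, and some genes of the lists are not reported here. The genes, lists and alternatives were chosen with earlier results of these data known.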

Additional observations from a re-analysis of the deposited data

How the results depend on the processing

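Across 9 other settings and loess centring, the latter chosen after seeing the data, 13 of the 29 genes measured on both arrays were above 0 under each setting that gave a value, Orc6 was below 0, and 15 had both signs. The count of 7 genes at least 1.5-fold higher was 0 with normexp, 12 with spike-in scaling, 3 with genes well above background on both arrays only and 4 at a 2-fold threshold, and 7 or 8 under the others. For all genes, 4.25% were at least 1.5-fold higher and 8.43% lower, against 6.54% and 6.57% with quantile normalization, 6.46% and 6.70% with median centring and 17.1% and 4.62% with spike-in scaling. Of the replication and nucleotide genes, 0 were at least 1.5-fold lower under each of these settings. The median over the 33 genes with a value was 0.11, and moved to 0.25 with the mean over probes and to 0.42 with spike-in scaling, where the median of all genes was 0.31 (0.10 with median centring). Minus the median of all genes, the genes' median was 0.07 to 0.25 under the settings. The E2F-type motif was in 15 rather than 16 promoters in the 200-base window. No replicate could be left out, and no paired analysis was possible because each group has 1 array. Low signal limits Orc1, Cdt1, Ccne2, Dnmt1 and the 4 bounds most. Causes of these shifts were not tested.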
